A study of Pleuronichthys verticalis with 38 samples.

Results

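The liver response to the high dose of a polychlorinated biphenyl (PCB) mixture was described in hornyhead turbot (Pleuronichthys verticalis), a bottom-living marine flatfish used to monitor contaminated sediment. All arrays titled High PCB (7 fish) and all arrays titled Oil Control (6 fish) were taken, which made 13 of the 38 arrays in the series. Each array held the liver RNA of 1 fish on a custom 1-colour Agilent design, and no fish were pooled. The exposed fish had received 10 µg of PCBs per g body weight in peanut oil by 1 injection into the body cavity, and the oil controls had received the peanut oil alone. Both groups were injected with 2 mL of oil per kg and were sampled after 96 h, so vehicle and injection were shared by both groups. Other fish in the series had received 1 µg per g of the same mixture (low PCB, 5 fish) or no injection (seawater controls, 7 fish). Polybrominated diphenyl ethers (PBDEs) had been given at 0.5 µg per g (low PBDE, 7 fish) or 5 µg per g (high PBDE, 6 fish). The exposed group held 6 males and 1 female, and the oil controls held 4 males, 1 female and 1 immature fish. Females made up 4 of the 5 low PCB fish and 2 of the 7 seawater controls, and the others were male. Low PBDE held 5 males and 2 females, and high PBDE held 5 males and 1 immature fish. The age of the fish was not given in the sources used here.

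PCBs are persistent chlorinated industrial fluids that accumulate in fat and liver. Per the labels, the injected mixture held 13 congeners, which ran from PCB 49, 52 and 66 at the lighter end over PCB 99, 101, 105, 118, 138 and 153 to PCB 170 and 180. Congeners 105 and 118 belong to the dioxin-like PCBs, which bind the aryl hydrocarbon receptor, a transcription factor that in fish and mammals switches on cytochrome P450 1A and other enzymes of xenobiotic metabolism in the liver. Many of the others carry chlorines next to the bond between the rings, and PCBs of that kind are known in mammals as activators of the pregnane X and constitutive androstane receptors, which control other hepatic cytochromes P450.

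The files paired each probe with a contig number of the turbot transcriptome and with no gene name. Probes are therefore given by their identifiers. None of the genes known for PCB exposure could be looked up here, and the label liver was not checked against marker genes for the same reason. A level is the log2 signal of a probe relative to the 75th percentile of its array, so that levels below 0 are signals dimmer than that percentile. Levels of different probes are not set against each other. A probe is called well above background where the scanner software marked it so. Less RNA per cell and fewer cells of one type cannot be told apart in pieces of whole liver.

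Measures of the whole array did not separate exposed from oil livers in the tests run, with 1 exception when a fish was left out. Across probes, the correlation of levels between an exposed and an oil fish had a median of 0.944 over 42 pairs of arrays. The median was 0.944 over the 21 pairs of exposed fish and 0.952 over the 15 pairs of oil controls. The number of probes well above background was 8338 ± 1030 in exposed fish (SD, n = 7) and 8914 ± 525 in oil controls (SD, n = 6), with an exact permutation p of 0.252. The 75th percentile of signal was 103 ± 35.4 intensity units in exposed fish and 130 ± 26.3 in oil controls (exact permutation p = 0.159). High PCB 32 stood apart as the dimmest array of the 13, with 6105 probes well above background and a 75th percentile of 43.6, and it was the only array on its slide. The mean correlation of an array with the other 12 averaged 0.943 in exposed fish and 0.946 in oil controls (exact permutation p = 0.172). Without the immature oil control 20, which had the lowest such value, the last difference was -0.00425 with an exact permutation adjusted p of 0.0417. With all 13 fish, the 3 permutation tests were two-sided over every labelling, with an adjusted p of 0.252 for each and 0.000583 as the smallest p they can give. Precision was limited by how many arrays there were per group.

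The comparison asked which liver transcripts differed after the high PCB dose beyond the effect of the vehicle. Of 10492 probes tested, 1 passed limma at a Benjamini-Hochberg adjusted p under 0.05, which is 0.00953% of them, and it was lower in exposed fish. An unadjusted p under 0.05 was reached by 777 probes (7.41%). Of these, 515 were lower in exposed fish (4.91% of those tested) and 262 were higher (2.5%). The lower side held 66.3% of the probes at an unadjusted p under 0.05 and 54.5% of all probes tested, for which the median log2 difference was -0.04. With normexp background correction the lower side held 58.9% of such probes (median of all 0.12), and with no filter on dim probes 52.7% (median of all 0.06). The middle 90% of differences lay between -0.72 and 0.65 on the log2 scale.

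**Figure D1:**
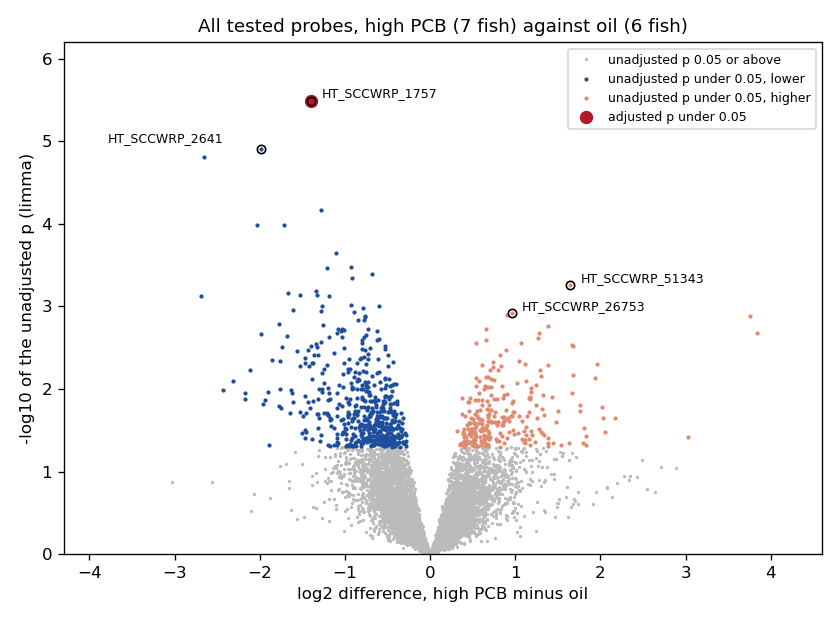
Each point is 1 of 10492 probes, with the fitted log2 difference between high PCB (7 fish) and oil (6 fish) on the horizontal axis and −log10 of the unadjusted limma p on the vertical axis. The 515 lower probes at an unadjusted p under 0.05 (dark blue) outnumber the 262 higher ones (orange), and 1 probe, HT_SCCWRP_1757, passes after adjustment.

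HT_SCCWRP_1757 was the probe that passed. Its level in the 6 oil controls had a lowest value of -2.88, a median of -2.28 and a highest value of -1.71. In the 7 exposed fish the lowest value was -4.65, the median -3.60 and the highest -3.04. Every exposed fish lay below every oil control, and high PCB 41 lay farther down than the other exposed fish. The means were -3.60 ± 0.52 (SD, n = 7) and -2.27 ± 0.42 (SD, n = 6), and the exposed mean as measured was 2.50-fold lower on the linear scale, with 4 of the 7 exposed values not well above background. The fitted log2 difference was -1.39 (SE 0.25, 95% interval -1.90 to -0.88, limma adjusted p = 0.0335). The signal was faint, since 3 of the 7 exposed fish and all 6 oil controls had it well above background. Without any 1 of oil controls 8, 15, 45 and 47 or exposed fish 25 and 32 the probe no longer passed, with limma adjusted p up to 0.159. It also missed the threshold in 12 of 18 other settings of the fit, and its difference was smallest, at -0.13 (adjusted p = 0.772), with normexp background correction. That setting adds an offset of 50 intensity units to every signal, which by construction shrinks differences between dim signals such as this one, so the effect of the background estimate alone was not tested.

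**Figure D2:**
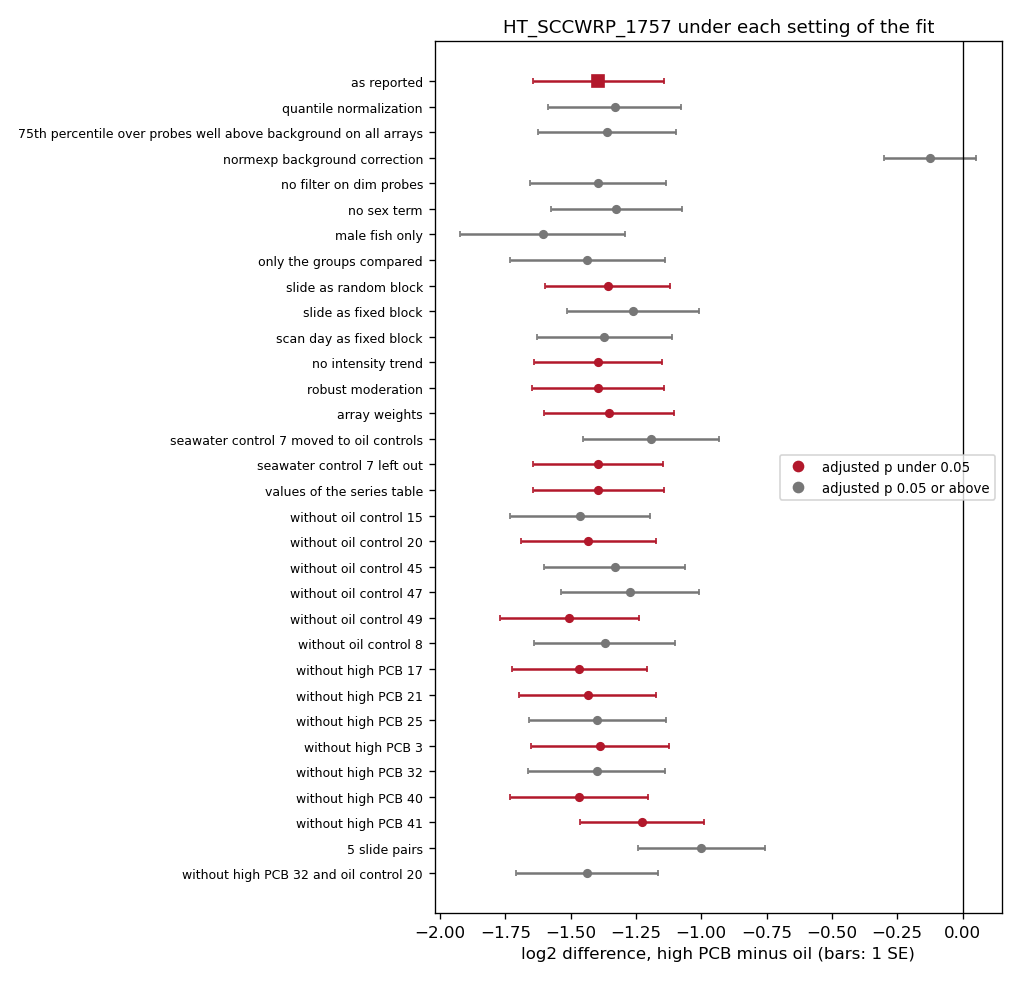
The fitted log2 difference between high PCB and oil at HT_SCCWRP_1757 (horizontal axis, bars of 1 SE) is drawn for the reported fit (square) and for each other setting or left-out fish (circles), in red where the limma adjusted p was under 0.05. The estimates run from -1.61 to -0.13, all below 0, and those past the threshold are interleaved with those that are not.

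HT_SCCWRP_2641 had the next smallest p among lower probes. Its level in oil controls ran from -3.40 over a median of -2.36 to -1.87. In exposed fish it ran from -5.02 over a median of -4.38 to -3.19. High PCB 3 was the only exposed fish inside the oil range, and the oil mean was above all 7 exposed values. The means were -4.29 ± 0.66 (SD, n = 7) and -2.43 ± 0.59 (SD, n = 6), with a log2 difference of -1.99 (SE 0.39, 95% interval -2.78 to -1.20). With a limma adjusted p of 0.0540 the probe did not pass. Only 2 of the 7 exposed fish had it well above background, and all 6 oil controls did. With slide as a random block its adjusted p was 0.0422, with arrays weighted by quality 0.0306, and without oil control 20, exposed fish 3 or exposed fish 41 between 0.0347 and 0.0468. It did not pass in the other 16 of 18 settings, among them normexp (-0.16, adjusted p = 0.760), nor without any of the other 10 fish, with adjusted p up to 0.213.

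HT_SCCWRP_9767, next in p after HT_SCCWRP_2641 among lower probes, was chosen after its values were seen. It passed where HT_SCCWRP_1757 did not when the fit held only these 13 fish. The levels of 5 oil controls lay close together, between -1.55 and -1.30, and the immature oil control 20 lay apart at -3.18. Exposed fish ran from -4.80 over a median of -4.22 to -3.33, so that here too the groups did not overlap. The fitted log2 difference was -2.65 (SE 0.53, 95% interval -3.72 to -1.58), with a limma adjusted p of 0.0540 in the fit of all 38 fish. In the fit of these 13 fish the difference was -2.78 (limma adjusted p = 0.00165). There immaturity and oil control 20, the only immature fish of the 13, cannot be told apart. The immature term took up that fish alone, so the exposed fish were set against the other 5 oil controls without its -3.18. HT_SCCWRP_9767 did not pass in 16 of 18 other settings, among them normexp (-0.40, adjusted p = 0.760). Scanner marks placed it well above background in 6 of 6 oil controls, 2 of 7 seawater controls and 1 of 7 exposed fish, so its size rests mostly on exposed signals not well above background. The seawater level of -3.52 ± 1.65 (SD, n = 7) lay nearer to the exposed mean of -4.20 ± 0.50 than to the oil mean of -1.71 ± 0.72, and the difference between high PCB and seawater did not pass (-0.72, SE 0.50, limma adjusted p = 0.715).

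The higher side held no probe that passed. HT_SCCWRP_51343 had the smallest p there. Its oil levels ran from -4.92 over a median of -4.10 to -2.01, and its exposed levels from -2.76 over a median of -2.37 to -1.68. Oil control 47 lay above 5 of the exposed fish, so the ranges overlapped, although 7 of 7 exposed fish were above the oil mean. The log2 difference was 1.65 (SE 0.43, 95% interval 0.77 to 2.52, limma adjusted p = 0.439). It was well above background in 7 of 7 exposed and 7 of 7 seawater fish, against 2 of 6 oil controls. The level in the uninjected seawater fish was -2.48 ± 0.78 (SD, n = 7), close to the exposed mean of -2.29 ± 0.42, while oil controls averaged -3.79 ± 1.12.

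HT_SCCWRP_26753 was a brighter probe, well above background in all 13 fish. Oil levels ran from -1.37 over a median of -0.71 to 0.09, and exposed levels from -0.07 over a median of 0.10 to 0.84. Oil control 47 again lay inside the exposed range, and 3 exposed fish lay inside the oil range. The log2 difference was 0.96 (SE 0.27, 95% interval 0.41 to 1.50, limma adjusted p = 0.471). The largest SD of these levels in either group was 0.53, in oil controls.

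**Figure D3:**
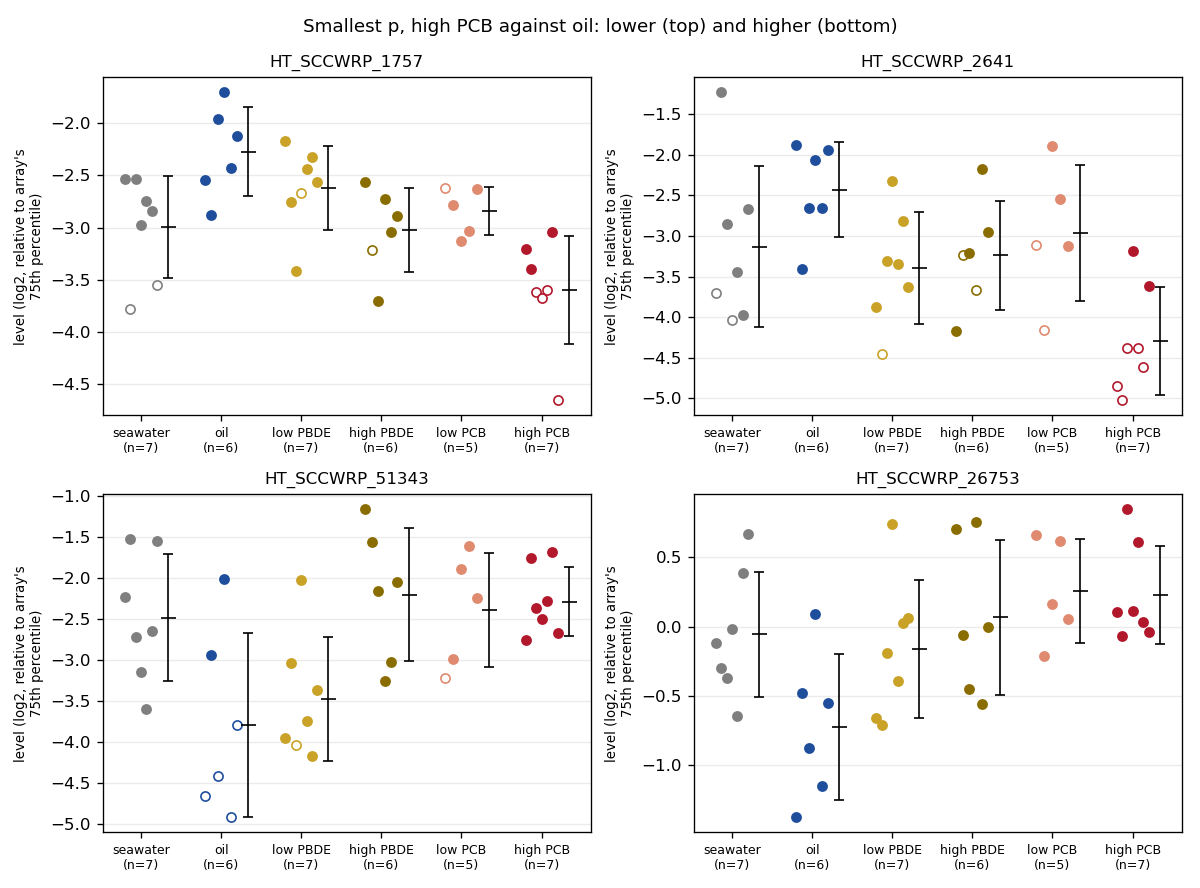
Levels of the 2 lower probes (top) and the 2 higher probes (bottom) with the smallest p are drawn for every fish of all 6 groups (log2 relative to the 75th percentile of the array, with mean and SD in black, filled points well above background and open points not). The exposed fish lie below all oil controls at HT_SCCWRP_1757 and overlap with them at the other 3, and the oil mean is the highest of the 6 groups at both lower probes and the lowest of the 6 at both higher probes.

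The remaining groups gave these 4 probes more context. At HT_SCCWRP_1757 the group means were, in order, oil -2.27, low PBDE -2.62, low PCB -2.84, seawater -2.99, high PBDE -3.02 and high PCB -3.60. The seawater fish thus lay between oil and high PCB, with a log2 difference of -0.57 between high PCB and seawater (SE 0.24, limma adjusted p = 0.435). At HT_SCCWRP_2641 the order was oil -2.43, low PCB -2.96, seawater -3.13, high PBDE -3.23, low PBDE -3.39 and high PCB -4.29. At HT_SCCWRP_51343 the 3 highest group means were high PBDE at -2.20, high PCB at -2.29 and low PCB at -2.39, with SDs from 0.42 to 0.81, so that their order did not exceed their spread. At HT_SCCWRP_26753 both PCB groups had like means, 0.23 ± 0.35 (high, n = 7) and 0.26 ± 0.38 (low, n = 5), above -0.06 ± 0.45 in seawater controls. Since the probes were picked for their difference from oil, a low or high oil group is part of how they were chosen.

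On 5 slides an exposed fish and an oil control could be set side by side, since each of these slides held 1 of each. The pairs were high PCB 40 with oil control 49 (both female), 25 with 20 (male and immature), and 21 with 15, 17 with 45 and 3 with 8 (all male). At HT_SCCWRP_1757 the exposed fish was lower in 5 of 5 pairs, by -0.61 to -1.55 on the log2 scale. That count follows from the lack of overlap between the groups at this probe. HT_SCCWRP_2641 was also lower in 5 of 5 pairs, with differences from -0.98 to -3.14. HT_SCCWRP_51343 was higher in 5 of 5 pairs, by 0.57 to 3.24, and HT_SCCWRP_26753 by 0.66 to 1.32. These probes were picked for their difference between groups that include the same fish, so the pairs are no separate check. Over all probes, 746 (7.11%) were lower in every pair and 353 (3.36%) were higher in every pair. An alternative chosen after seeing the data held only these 10 arrays in the fit, with slide as a block. Of the 10492 probes tested, 0 then passed limma and 969 had an unadjusted p under 0.05, beside 777 (7.41%) in the main fit. The difference at HT_SCCWRP_1757 was then -1.0002 (adjusted p = 0.422).

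**Figure D4:**
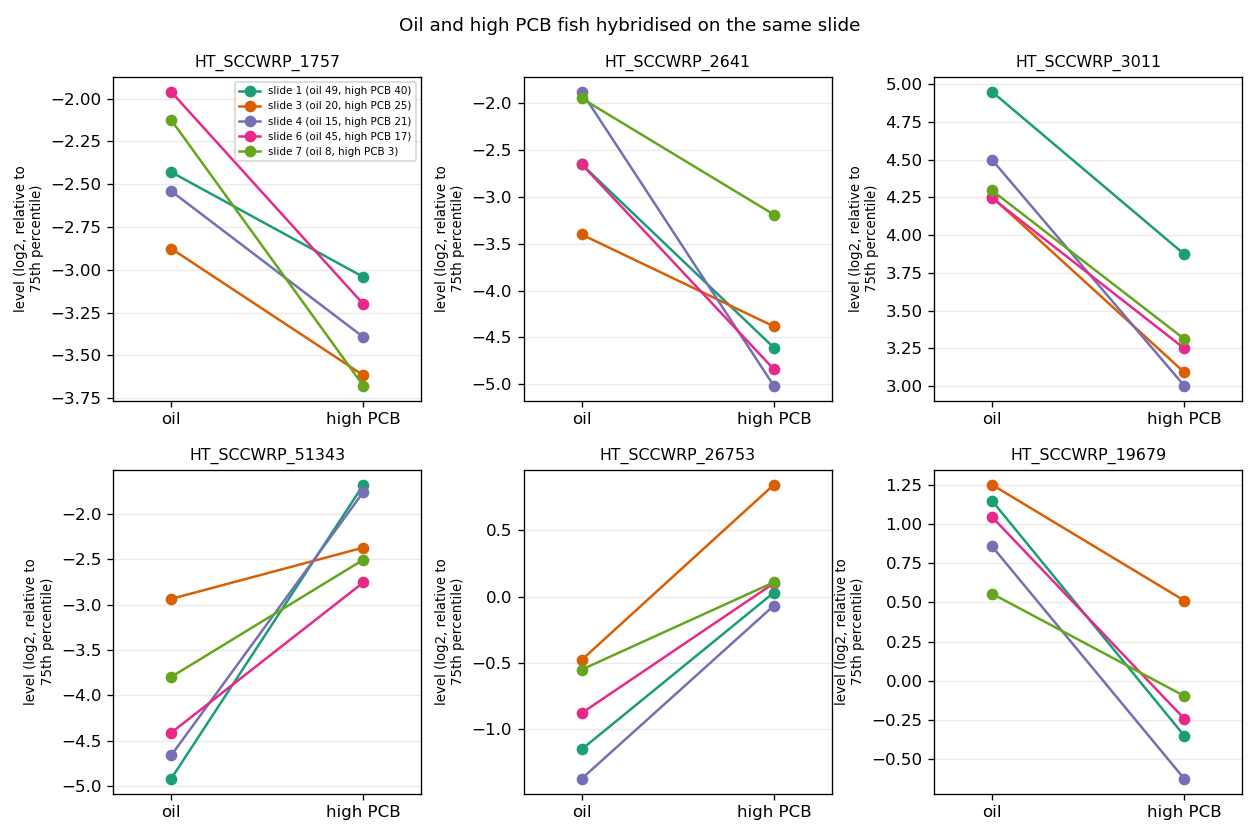
Each line joins the oil control and the high PCB fish hybridised on 1 slide, for 6 probes, with the level (log2 relative to the 75th percentile of the array) on the vertical axis. All 5 lines go down at HT_SCCWRP_1757, HT_SCCWRP_2641, HT_SCCWRP_3011 and HT_SCCWRP_19679 and up at HT_SCCWRP_51343 and HT_SCCWRP_26753. The probes were picked from comparisons that include these same fish.

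Probes at which the groups separated completely were few. All 7 exposed fish lay below all 6 oil controls at 20 probes (0.191% of those tested) and above them at 6 probes (0.0572%). Without high PCB 32, the dimmest array, the counts were 39 (0.372%) and 10 (0.0953%). Leaving out any exposed fish can only keep or raise these counts. The scanner marks gave a similar picture of presence. Of the 10492 probes tested, 5802 were well above background in all 13 fish and 58 in none. Those well above background in all oil controls but in at most 2 exposed fish numbered 23, against 2 in the opposite direction. Without high PCB 32 these counts, which likewise cannot fall, were 24 and 10. The part of overall array brightness in this asymmetry was not tested.

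HT_SCCWRP_4752, chosen after its values were seen, was the only probe well above background in every oil control and in no exposed fish, and 0 probes showed the reverse. Its oil levels ran from -3.47 over a median of -2.53 to -2.17. Its measured exposed levels ran from -5.76 over a median of -4.52 to -3.79, all below the oil range. Because the exposed fish gave only a bound, its mean level in these fish was at least 1.92-fold lower, without allowance for spread between fish. This bound sets the oil mean against whichever was higher on each exposed array, this probe's level or the dimmest signal still marked well above background. The limma adjusted p was 0.181, so the probe did not pass. The oil mean was -2.63 ± 0.49 (SD, n = 6), and the other groups averaged between -3.52 in low PBDE and -4.18 in high PBDE.

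The largest fitted differences were not those with the smallest p. The 2 probes with the largest positive differences, HT_SCCWRP_7149 and HT_SCCWRP_14, were chosen after their values were seen. HT_SCCWRP_7149 ran from -3.19 over a median of -0.36 to 2.35 in exposed fish and from -6.32 over -3.85 to -2.14 in oil controls. Its log2 difference was 3.83, but fish differed so much within each group (SD 2.14 and 1.73) that the SE was 1.15 and the limma adjusted p 0.481. HT_SCCWRP_14 ran from -4.06 over -1.56 to 2.13 in exposed fish and from -6.32 over -5.51 to -2.51 in oil controls. Its difference was 3.75 (SE 1.07, limma adjusted p = 0.471), and the pair on slide 6 went the other way, at -0.67. Both probes were also high in the low PCB group, at 0.44 ± 1.82 and -0.75 ± 1.92 (SD, n = 5), and the ranges of exposed and oil fish overlapped at each. The oil means, -4.16 and -5.10, were the lowest of all groups. Seawater controls averaged -1.64 ± 1.47 and -2.57 ± 2.40 (SD, n = 7). The differences between high PCB and seawater, 1.11 and 1.50, did not pass (limma adjusted p = 0.837 and 0.712). Oil controls had them well above background in 2 and 1 of 6 fish, so the lowest oil values are those of signals near background.

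The sizes of difference that the data still allow were read from the intervals. The 95% interval of the log2 difference had a median half-width of 0.65, equal to 1.57-fold. For 5935 probes (56.6%) the whole interval lay between -1 and 1, which is less than 2-fold in either direction. Each interval was taken for its own probe, so some of these can miss the true difference. The fitted difference itself exceeded 1 on the log2 scale at 379 probes (3.61%), 200 lower (1.91%) and 179 higher (1.71%). Precision rose with brightness. Among the 2623 dimmest probes the median half-width was 0.90 and 5.49% had an unadjusted p under 0.05, of which 101 were lower and 43 higher. Among the 2623 brightest it was 0.48 and 9.87%, with 159 lower and 100 higher. The median SD of a probe between fish was 0.56 in the exposed group and 0.51 in oil controls.

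The high dose was next set against the low dose of the same mixture, a step of 10-fold. No probe passed limma (0 of 10492, 0%), and 319 had an unadjusted p under 0.05 (3.04%), 222 lower at the high dose (2.12%) and 97 higher (0.925%). Lower probes were 69.6% of these, but 58.9% with quantile normalization and 48.7% with normexp background correction. Sex was unevenly spread between the dose groups and was a term of the fit. Without low PCB 33, the only male of that group, 768 probes had an unadjusted p under 0.05, and with male fish alone 951. In the latter low PCB 33 stood for the whole group and was assumed to vary like the other groups, and 43.0% of the 951 were lower. In both, 0 passed.

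HT_SCCWRP_8721 had the smallest p between the doses. Its low PCB levels ran from -2.15 over a median of -2.01 to -0.97, and its high PCB levels from -4.86 over a median of -3.88 to -2.47, with no overlap. The oil controls overlapped with both, from -2.67 over -2.38 to -1.17, where oil control 20 was the highest. All 5 low PCB fish were above the oil mean of -2.22 and all 7 high PCB fish below it. Seawater controls averaged -3.19 ± 0.76 (SD, n = 7), nearer to the high PCB mean of -3.63 ± 0.84 than to the oil mean. The difference between high PCB and seawater did not pass (-0.40, SE 0.33, limma adjusted p = 0.787). Since the probe was picked for its difference between the doses, separate dose groups are part of how it was chosen. The log2 difference between the doses was -1.75 (SE 0.41, 95% interval -2.57 to -0.92), with a limma adjusted p of 0.999. The difference between high PCB and oil was -1.33 (SE 0.36, limma adjusted p = 0.439), and -0.01 with normexp (adjusted p = 0.975). At the high dose 2 of 7 fish had it well above background.

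HT_SCCWRP_2641 was the other lower probe by this rule, with a log2 difference of -1.84 between the doses (SE 0.44, limma adjusted p = 0.999). Its low PCB levels ran from -4.16 over -3.11 to -1.89, overlapping with both oil and high PCB fish. On the higher side, HT_SCCWRP_1431 ran from -4.92 over -2.84 to -2.72 at the high dose and from -5.97 over -4.44 to -4.09 at the low dose, with a difference of 1.65 (SE 0.43, limma adjusted p = 0.999). Its oil level of -3.61 ± 0.35 (SD, n = 6) lay between the dose groups. HT_SCCWRP_11688 ran from 3.13 over 3.60 to 3.82 at the high dose and from 1.26 over 3.14 to 3.60 at the low dose (difference 1.39, SE 0.36, limma adjusted p = 0.999). Its high PCB mean of 3.56 ± 0.25 lay within the oil range of 2.89 to 4.01. Seawater controls averaged less, at 2.21 ± 0.64 (SD, n = 7). The difference between high PCB and seawater was 1.46 (SE 0.30, limma adjusted p = 0.0342). That passed in the main fit, but not with normexp, no sex term or male fish only, among other settings. At HT_SCCWRP_1757 the 2 doses differed by -0.60 (95% interval -1.18 to -0.02, limma adjusted p = 0.999; 0.01 with normexp), with 5 of 5 low PCB fish also below the oil mean.

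The high dose was also set against the equally weighted mean of the oil and the uninjected seawater controls. A probe can reach a small p here through a large difference from either control group alone. This comparison shares the exposed and oil fish with the first, and it mixes the injection with the exposure in part. No probe passed limma (0 of 10492, 0%), and 873 had an unadjusted p under 0.05 (8.32%), of which 570 were lower (5.43%) and 303 higher (2.89%). Lower probes were 65.3% of these, and 46.8% with normexp background correction. Against seawater controls alone, 8 probes passed (0.0762%), and leaving out 1 fish gave 0 to 32, with 0 without high PCB 32 or seawater control 7 or 24 and 32 without high PCB 41.

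HT_SCCWRP_3011, a bright probe well above background in all fish, had the smallest p of this comparison. Its level ran from 4.24 over a median of 4.38 to 4.95 in oil controls and from 4.21 over 4.67 to 5.18 in seawater controls. In exposed fish it ran from 3.00 over 3.31 to 4.33. High PCB 41 was the only exposed fish inside the oil range, and the other 6 lay below every fish of both control groups. The exposed mean of 3.50 ± 0.48 (SD, n = 7) lay below the mean of both controls by a fitted log2 difference of -1.002 (SE 0.19, 95% interval -1.40 to -0.61, limma adjusted p = 0.0534), which missed the threshold. Without high PCB 41 the difference was -1.14 (limma adjusted p = 0.00865). The probe passed in 4 of 20 fits that left out 1 fish and in 6 of 17 other settings. Against oil alone the difference was -0.93 (SE 0.23, limma adjusted p = 0.399), and against seawater alone -1.07 (SE 0.22, adjusted p = 0.0342). The last passed, but not in 8 of 17 other settings, with limma adjusted p up to 0.889. Nor did it pass in 11 of 14 fits that left out 1 fish, with adjusted p up to 0.142. Of the slide pairs, which hold fish used to pick the probe, 5 of 5 were lower, by -0.98 to -1.50.

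HT_SCCWRP_19679 showed a like arrangement. Exposed fish ran from -0.84 over a median of -0.24 to 0.72, oil controls from 0.56 over 0.95 to 1.25 and seawater controls from 1.00 over 1.40 to 1.81. High PCB 41 was again the highest exposed fish and the only one inside the oil range. The difference from the mean of both controls was -1.29 (SE 0.25, 95% interval -1.81 to -0.77, limma adjusted p = 0.0534). Without high PCB 41 it was -1.43 (limma adjusted p = 0.0196). The probe passed in 3 of 20 fits that left out 1 fish and in 5 of 17 other settings. Against oil alone the difference was -1.03 (SE 0.31, limma adjusted p = 0.481). Against seawater alone it was -1.55 (SE 0.29, adjusted p = 0.0285), which passed. It did not pass with normexp, male fish only, only the groups compared or slide as a fixed block. Nor did it pass with seawater control 7 moved or left out, or without seawater control 24 or high PCB 32. The low PCB group lay at -0.19 ± 0.68 (SD, n = 5), beside -0.13 ± 0.57 (SD, n = 7) at the high dose, with a difference between doses of 0.09 (95% interval -0.61 to 0.80) whose sign depended on the setting. At HT_SCCWRP_3011 the low PCB level was 3.74 ± 0.32, and the doses differed by -0.06 (95% interval -0.59 to 0.48), with a sign that depended on single fish. Both PBDE groups lay between controls and PCB groups at both probes, at 4.07 ± 0.50 and 3.98 ± 0.50 for HT_SCCWRP_3011 and 0.86 ± 0.61 and 0.35 ± 0.67 for HT_SCCWRP_19679.

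The higher probes of this comparison, HT_SCCWRP_18134 and HT_SCCWRP_14044, did not pass either. HT_SCCWRP_18134 lay at -0.08 ± 0.76 in exposed fish (SD, n = 7), -1.87 ± 1.29 in oil controls (n = 6) and -2.32 ± 0.91 in seawater controls (n = 7). Its difference from the mean of both controls was 1.95 (SE 0.44, limma adjusted p = 0.122). Against oil alone it was 1.68 (SE 0.53, limma adjusted p = 0.482), and against seawater alone 2.22 (SE 0.50, adjusted p = 0.0674). Inside the oil range of -3.91 to -0.60 lay 2 exposed fish. HT_SCCWRP_14044 averaged 2.37 ± 0.61 in exposed fish, against 1.23 ± 1.24 in oil controls and 0.56 ± 0.84 in uninjected fish. Its difference from the mean of both controls was 1.32 (SE 0.31, limma adjusted p = 0.126). Against oil alone it was 0.87 (SE 0.37, limma adjusted p = 0.628). Against seawater alone it was 1.77 (SE 0.35, adjusted p = 0.0307), which passed. It did not pass with normexp, no sex term, male fish only, only the groups compared or slide as a fixed block. Nor did it pass with seawater control 7 moved or left out, or without seawater control 24 or high PCB 32. Here 5 exposed fish lay inside the oil range of -1.01 to 2.72, and 1 of 5 slide pairs went the other way. Against the mean of both controls, both probes passed limma without oil control 15, at 2.07 (adjusted p = 0.0476) and 1.46 (adjusted p = 0.0465). HT_SCCWRP_14044 also passed there without high PCB 41 (1.50, adjusted p = 0.0374). The low PCB and both PBDE groups also had higher means than either control group at both probes.

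**Figure D5:**
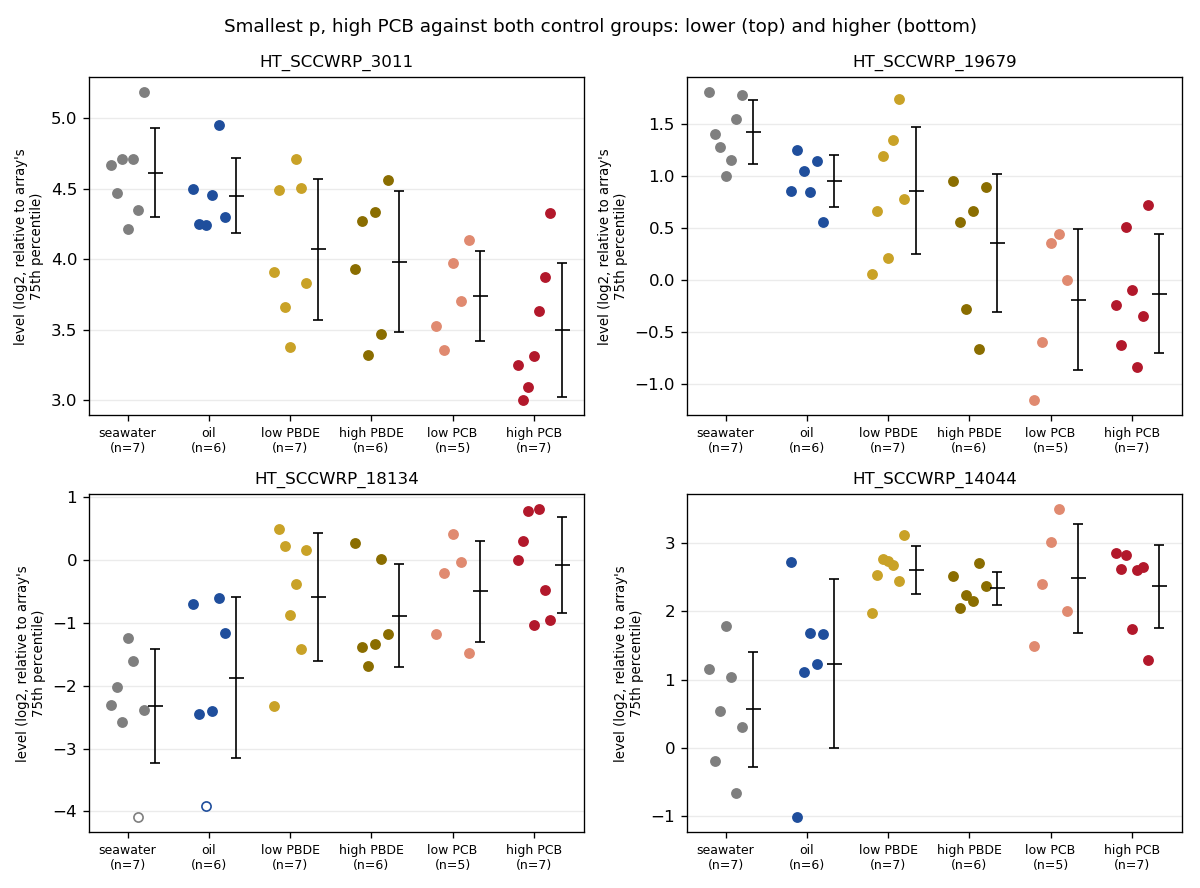
Levels of the 2 lower probes (top) and 2 higher probes (bottom) with the smallest p against the mean of both control groups are drawn for every fish of all 6 groups (log2 relative to the 75th percentile of the array, mean and SD in black, filled points well above background). At HT_SCCWRP_3011 and HT_SCCWRP_19679, 6 of 7 exposed fish lie below all oil controls, with the low PCB fish near them, while at the higher probes the oil controls spread widely.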

How the data were processed

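Per the file headers, the authors extracted spot intensity with Feature Extraction 11.5.1.1 (protocol GE1_1105_Oct12). The deposited scanner files hold a background-subtracted processed intensity per spot on a linear scale, with quality marks. The deposited series table holds the same intensities within 0.497%, and served as an alternative. Its column medians over non-control spots ran from 5.1 to 25.1, so it was neither scaled nor centred, and with 1 colour it has no direction; the reason for its rounding is unknown. Per the labels' protocols, RNA integrity averaged 8.9 (7.1 to 9.2).

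The log2 of the processed intensity was taken relative to the 75th percentile of each array's 15207 non-control spots and averaged per probe, with outlier-marked spots left out. Of 14757 probes, 10502 were well above background on 5 or more of the 38 arrays, and 10 of them were dropped for a value lost to outlier marks, leaving 10492. All 38 arrays were fitted with group and sex in limma 3.58.1 (R 4.3.3, empirical Bayes with intensity trend), two-sided, with Benjamini-Hochberg adjustment over 10492 probes and a threshold of 0.05. The fit was tested on simulated data with independent normal noise. These held no effect of sex, slide or array brightness, so they do not test how the fit deals with those.

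Groups came from sample titles, with 1 fish per sample. Seawater control 7, a vehicle control by its description, stayed in the group its title gives, and was moved or dropped as alternatives. Others were quantile scaling, the 75th percentile over probes well above background on all arrays, normexp (offset 50), no filter or a stricter one, no sex term, males only, only the groups compared, slide or scan day as a block, no trend, robust moderation, array weights and each fish left out. Arrays lay on 8 slides scanned on 3 days.

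The comparisons, lists and most settings were chosen with earlier results of these data known. Gene and marker lists could not be applied without gene names. Text therefore names, for 3 comparisons, the 2 higher and the 2 lower probes of smallest p, and marks any other as picked with its values known. No sequences were used here.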

Additional observations from a re-analysis of the deposited data

Results flagged for a closer look

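Of 36 group values asked whether their highest or lowest fish stood apart by Dixon's gap, 6 did, and chance alone gives about 1 in 20. High PCB 32 had 6105 probes well above background, where the next exposed fish had 8274. High PCB 41 had a level of -4.65 at HT_SCCWRP_1757, against -3.68 in the next fish; without it the log2 difference from oil was -1.23 (limma adjusted p = 0.0468). Oil control 20, the immature fish, had the lowest mean correlation with the other 12 arrays, 0.938 against 0.947 in the next oil control. It was also the highest oil control at HT_SCCWRP_8721, at -1.17, and the lowest at HT_SCCWRP_9767, at -3.18. Oil control 49, the female, was the highest at HT_SCCWRP_3011, at 4.95. At HT_SCCWRP_8721 the high and low PCB fish lay on opposite sides of the oil mean, with a log2 difference of -1.75 between the doses that did not pass limma (adjusted p = 0.999). Seawater controls averaged -3.19 at this probe, nearer to the high PCB mean of -3.63 than to the oil mean of -2.22. This probe was picked for its difference between the doses.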

How the results depend on the processing

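For high PCB against oil, the count of 1 probe passing limma became 0 with quantile normalization, the 75th percentile over probes well above background on all arrays, normexp, no filter, a strict filter (only probes well above background on all arrays), a fit of male fish only, no sex term, slide as a fixed block, scan day, seawater control 7 moved, and 2 alternatives chosen after seeing the data (the 5 slide pairs, and without high PCB 32 and oil control 20 together). The strict filter left HT_SCCWRP_1757 itself out, so that setting did not test it. The count was 2 with slide as a random block and 3 with array weights. Leaving out 1 fish gave 0 to 3, with 0 without oil controls 8, 15, 45 or 47 or high PCB 25 or 32, 2 without high PCB 3, and 3 without oil control 20 or high PCB 41. Only the groups compared gave 1, a different probe (HT_SCCWRP_9767), in a fit whose immature term took up oil control 20 alone. Probes at an unadjusted p under 0.05 ranged from 382 (normexp) to 1008 (no filter). Normexp moved the median difference of all probes from -0.04 to 0.12, and relative to that median HT_SCCWRP_1757 lay at -0.24. Its offset of 50 shrinks differences of dim probes by construction. High PCB against low PCB gave 0 in every setting run, with 124 to 951 at an unadjusted p under 0.05, the highest in male fish, with 1 low PCB fish. Against seawater, 8 became 23 (quantile), 16 (that 75th percentile), 0 (normexp), 15 (strict filter), 0 (male fish only), 0 (only the groups compared), 19 (slide random), 5 (scan day), 5 (no trend), 23 (weights) and 0 with seawater control 7 moved or left out, and 0 to 32 without 1 fish. Against both controls, 0 became 1 (quantile), 5 (that 75th percentile), 2 (strict filter), 2 (no sex term), 2 (only the groups compared), 2 (slide random) and 6 (weights), and 0 to 11 without 1 fish, the highest without oil control 15. The mean correlation with the other arrays passed only without oil control 20 (difference -0.00425, exact permutation, adjusted p = 0.0417), in a range of -0.00425 to -0.00201. Differences from oil at the probes named kept their sign in all settings run, except that HT_SCCWRP_1431 and HT_SCCWRP_11688 were not followed there. HT_SCCWRP_11688 differed from oil by 0.02 in the main fit and by a mean of -0.01 over the 5 slide pairs. Differences from the mean of both controls kept their sign at the probes picked for that comparison, the only ones followed in it. Between the doses, the sign turned at HT_SCCWRP_1757 with normexp (0.00774), and at HT_SCCWRP_19679 with normexp (-0.0627), male fish only (-0.45) and only the groups compared (-0.246); without 1 fish HT_SCCWRP_19679 ran from -0.12 to 0.36 and HT_SCCWRP_3011 from -0.18 to 0.15. Fish numbers, not shared between groups, pair no samples, so pairs were formed by slide only. Arrays of 1 slide had an estimated correlation of 0.111. Slide as a fixed block removes high PCB 32, alone on its slide.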
